A study of Sus scrofa with 12 samples.

Results

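The genes described here are 10 genes of the hormone-secreting cells of the gut lining: PYY, GCG, CCK, GIP, NTS, SST, GHRL, CHGA, TPH1 and SLC6A4. They were taken from a table of gene expression in the pig jejunum by gene name, with loci of the same name summed, and 9 of the 10 were matched in this way among 17049 different gene names. GIP carries no symbol in the table and was matched through its Ensembl identifier, ENSSSCG00000026330. It is described beside the 9 and not counted among them. The table held 12 libraries, 3 for each of 4 groups. W_Con libraries came from sucking piglets of 21 days whose sows were fed a corn-soybean meal diet without resveratrol, and PW_Con libraries from piglets of such sows at 28 days, 7 days after weaning. W_Res and PW_Res were the same ages in litters of sows fed 300 mg/kg resveratrol, a plant polyphenol, through gestation and lactation. The series record describes sows mated to pooled Landrace boars, all on the same basal diet, piglets fostered only within a diet, and weaned piglets left in their pens. The study's methods, which cover the control litters, instead name Yorkshire × Duroc litters and a move to a nursing room, with 1 male piglet taken from each litter at each age, and this difference is not settled here. Weaned piglets were also 7 days older than sucking piglets, so that weaning and age cannot be told apart.

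Enteroendocrine cells are scattered single cells of the gut epithelium that sense the lumen and release peptide hormones or serotonin. The upper small intestine is known for cells that make GIP, CCK, motilin and some ghrelin, and the lower small intestine for cells that make glucagon-like peptides (from GCG), PYY and neurotensin. Serotonin is made from tryptophan by TPH1 in enterochromaffin cells and is taken up again by the transporter that SLC6A4 encodes. In whole tissue, fewer cells of a type and less RNA per cell cannot be told apart.

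Values are given in FPKM, fragment counts scaled to transcript length and to the size of the library, and the table does not give the depth of each library. The study reported read numbers for the control libraries alone. There every weaned library had a lower share of uniquely mapped reads and a higher GC content than every sucking library. The part of this difference in the control weaning comparison was not tested. Summed FPKM ran from 313171 to 334469, and libraries of the same group correlated across genes with r from 0.881 to 0.961. In 4 libraries the distal marker FABP6, the ileal bile acid binding protein, lay between 1.70 and 12.2 FPKM, against 128 to 24110 FPKM in the other 8. These were W_Con replicate 3, W_Res replicate 2 and PW_Res replicates 2 and 3. The same 4 libraries held 19.1 to 24.1 FPKM of GATA4, a transcription factor of the upper small intestine, against 0.76 to 9.65 FPKM elsewhere. No PW_Con library was among them. All libraries were labelled jejunum. Estimates for the 10 genes, and calls among the listed genes, were therefore also computed without these 4 libraries, a setting chosen after the data were seen. The part of gut position in any result was not tested.

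**Figure D1:**
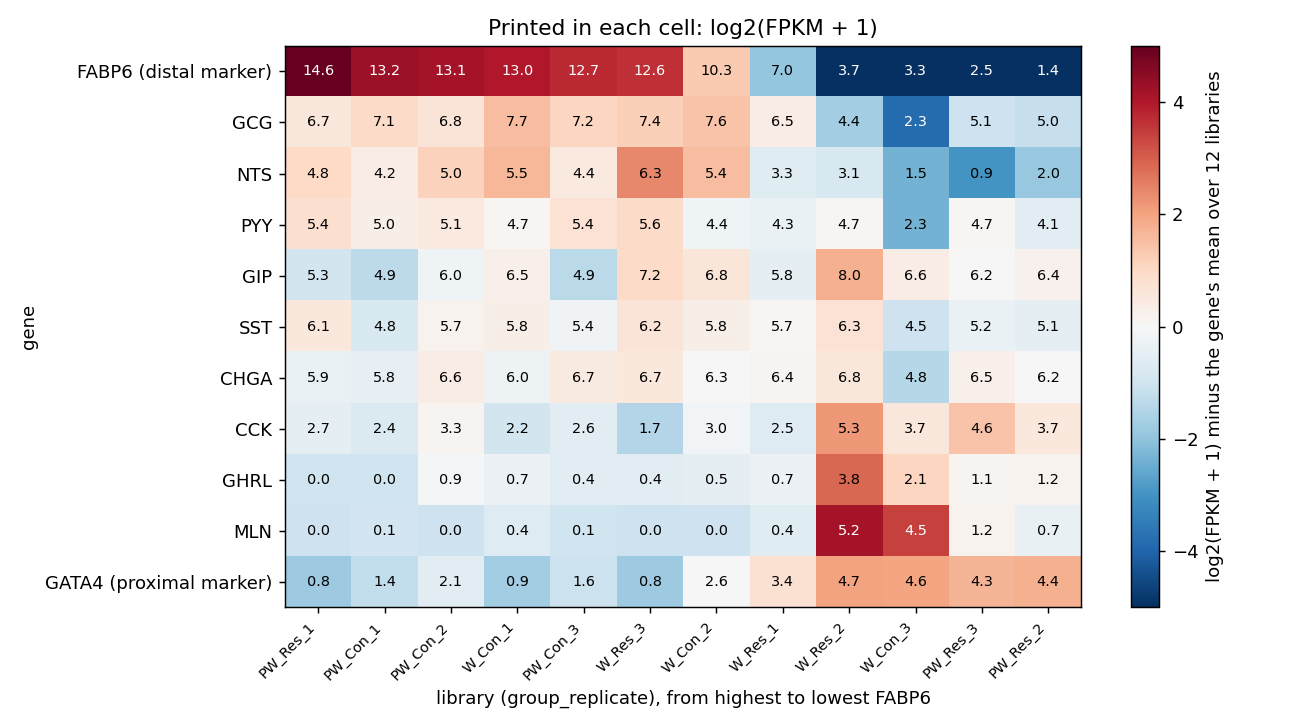
The log2(FPKM + 1) level of 8 hormone and granule genes, of MLN and of the markers FABP6 and GATA4 in each of 12 libraries (columns, ordered by FABP6), with colour for the difference from the gene's mean. The 4 libraries on the right, with FABP6 at or below 12.2 FPKM, have the lowest GCG and NTS values and the highest CCK and GHRL values.

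Among the distal hormones, GCG, the precursor of glucagon-like peptides, was the most abundant of all 10 genes with a mean of 104 FPKM over 12 libraries. It stood at 209, 191 and 3.93 FPKM in W_Con replicates 1 to 3 and at 136, 110 and 148 FPKM in PW_Con. In W_Res it was 92.5, 20.7 and 164 FPKM, and in PW_Res 106, 31.0 and 33.8 FPKM. The 3 PW_Con libraries were thus close together, whereas each of the other groups combined high and low libraries. All 4 libraries with low FABP6 had 3.93 to 33.8 FPKM of GCG, below the 92.5 to 209 FPKM of the remaining 8.

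NTS encodes neurotensin, a distal peptide that slows motility and aids fat uptake. Its values were 45.6, 41.8 and 1.85 FPKM in W_Con, 18.0, 31.0 and 19.6 FPKM in PW_Con, 8.53, 7.39 and 76.2 FPKM in W_Res and 27.8, 2.90 and 0.82 FPKM in PW_Res. It had the widest span of the genes detected in every library, with its highest value 93.0 times its lowest. Again the 4 libraries with low FABP6 lay below all others, at 0.82 to 7.39 FPKM against 8.53 to 76.2 FPKM.

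PYY, whose peptide slows gastric emptying and reduces appetite, is made in the same L cells as GCG. It read 25.7, 20.6 and 3.95 FPKM in W_Con and 29.9, 34.3 and 40.3 FPKM in PW_Con, so these groups did not overlap. In W_Res it read 19.2, 25.3 and 48.0 FPKM and in PW_Res 42.6, 16.5 and 25.0 FPKM, 2 groups that overlapped broadly. The lowest library was W_Con replicate 3, which was also the lowest for GCG, SST and CHGA.

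Of the proximal hormones, GIP, the incretin of K cells, was the second most abundant gene, with a mean of 88.5 FPKM over 12 libraries. Its levels were 88.1, 113 and 94.98 FPKM in W_Con and 28.9, 63.2 and 28.0 FPKM in PW_Con, with every sucking library above every weaned one. The same held, in that direction, for 12.7% of 12611 gene names. GIP levels were 53.1, 253 and 144 FPKM in W_Res and 37.8, 84.9 and 73.8 FPKM in PW_Res, where W_Res replicate 1 fell among the weaned libraries.

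CCK, which encodes cholecystokinin of I cells, was 3.71, 6.93 and 12.0 FPKM in W_Con, 4.39, 8.71 and 5.19 FPKM in PW_Con, 4.69, 38.8 and 2.24 FPKM in W_Res and 5.33, 11.8 and 22.6 FPKM in PW_Res. GHRL, which encodes ghrelin, was scarce, at 0.62, 0.44 and 3.19 FPKM in W_Con and 0.63, 13.3 and 0.33 FPKM in W_Res. After weaning it was listed at 0, 0.90 and 0.35 FPKM in PW_Con and at 0, 1.22 and 1.18 FPKM in PW_Res. For both genes the 4 libraries with low FABP6 were the 4 highest, with CCK at 11.8 to 38.8 FPKM against 2.24 to 8.71 FPKM and GHRL at 1.18 to 13.3 FPKM against 0 to 0.90 FPKM. GCG, NTS, CCK and GHRL thus divided the libraries as FABP6 and GATA4 did, as was the case for 1.15% of 12886 gene names in either direction. Most other position markers did not. Of 8 distal markers found, 3 were lower in all 4 libraries than in all others (FABP6, by which the libraries were set apart, SLC10A2 and GUCA2A), and of 10 proximal markers found 1 was higher in all 4, GATA4.

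Somatostatin (SST), the inhibitory peptide of D cells, and chromogranin A (CHGA), a protein of secretory granules common to most enteroendocrine types, varied least of these genes that could be tested. SST was 55.6, 56.2 and 21.7 FPKM in W_Con, 26.5, 51.6 and 40.4 FPKM in PW_Con, 49.4, 75.6 and 72.8 FPKM in W_Res and 66.2, 32.6 and 36.5 FPKM in PW_Res. CHGA was 61.6, 75.9 and 26.9 FPKM in W_Con, 56.1, 97.2 and 103 FPKM in PW_Con, 82.5, 109 and 106 FPKM in W_Res and 58.9, 74.6 and 88.9 FPKM in PW_Res. All W_Res libraries exceeded all W_Con libraries for CHGA, and its levels in the 4 libraries with low FABP6 spanned those of the other 8.

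For serotonin, TPH1 was near the limit of detection, between 0 and 1.05 FPKM with a mean of 0.399 FPKM. It was 0.61, 0.37 and 0.14 FPKM in W_Con, 0.38, 0.35 and 0.36 FPKM in PW_Con, 0.52, 0 and 1.05 FPKM in W_Res and 0.40, 0.13 and 0.49 FPKM in PW_Res. This mean was under the 0.5 FPKM required for a test, and the groups overlapped. SLC6A4, the serotonin transporter, was 2.90, 7.45 and 15.9 FPKM in W_Con, 2.82, 6.22 and 0.96 FPKM in PW_Con, 6.35, 12.0 and 7.07 FPKM in W_Res and 6.35, 4.23 and 7.75 FPKM in PW_Res. In each litter set 2 of the 3 weaned libraries lay below the lowest sucking library, in PW_Con replicate 1 and PW_Res replicate 1 only just, and the remaining library lay within the sucking range. SLC6A4 is the sum of 2 loci, of which the smaller contributed 8.13%, and NTS is the sum of 2 loci, of which the smaller contributed 1.21%.

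**Figure D2:**
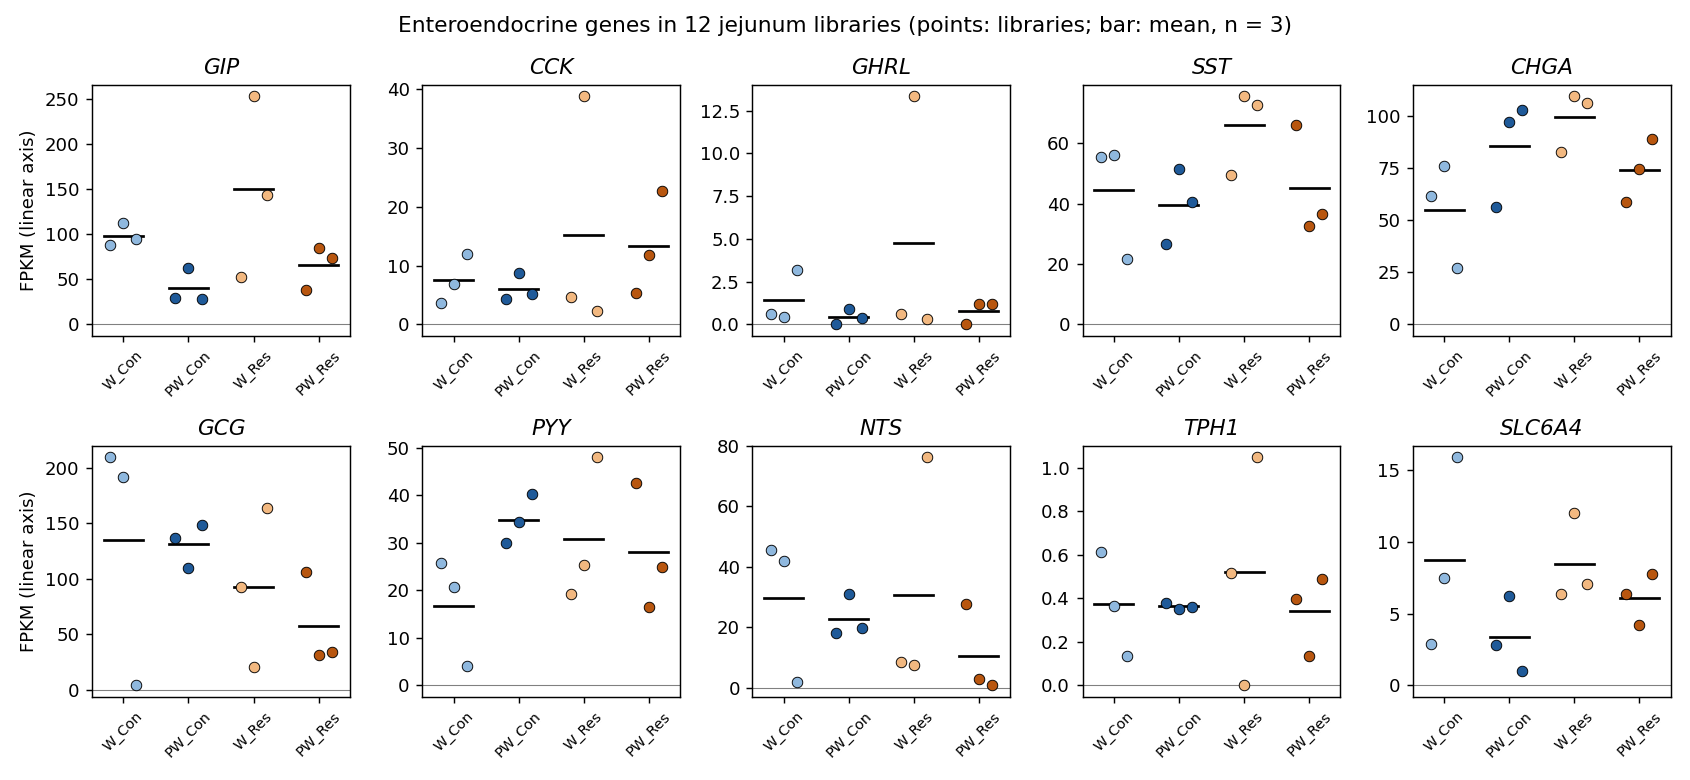
FPKM of each of the 10 genes (one panel per gene, linear axes) in the 4 groups, with a point for each library and a bar for the mean of 3. GIP lies at 88.1 to 113 FPKM in W_Con and at 28.0 to 63.2 FPKM in PW_Con, while GCG, NTS, CCK and GHRL each have single libraries far from the rest of their group.

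By mean level over the 12 libraries the genes ranked GCG, GIP, CHGA, SST, PYY, NTS, CCK, SLC6A4, GHRL and TPH1. Each gene overlapped its neighbours in this order over the 12 libraries. The order differed between groups. GCG had the highest mean in W_Con (135 FPKM) and PW_Con (131 FPKM), GIP in W_Res (150 FPKM) and CHGA in PW_Res (74.1 FPKM). The within-group SD on the log2 scale was 1.79 for both NTS and GCG, 1.15 for CCK and 1.12 for GHRL, against a median of 0.34 over 12886 gene names. For GCG and NTS 99.4% of gene names had a smaller SD. It was 0.82 for PYY, 0.77 for SLC6A4, 0.73 for GIP, 0.55 for SST and 0.49 for CHGA.

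The first comparison asked what differed between weaned and sucking piglets of control sows. GIP was lower after weaning, and PYY had the largest positive estimate of the 9 genes, but with W_Con replicate 3 far below its group. None of the 8 genes that could be tested among the 9 passed the study's standard, an unadjusted P under 0.05 with a log2 fold change above 1 or below -1, where 3.31% of 12611 gene names passed. Fold changes are of FPKM + 1, which understates the change of scarce genes, and were tested with limma. GIP passed, with a log2 fold change of -1.38 (SE 0.32, Benjamini-Hochberg adjusted p = 0.130 by limma), a fall from 98.7 ± 12.9 to 40.0 ± 20.1 FPKM (SD, n = 3). The share of gene names past the standard and lower was 1.82%. GIP kept that standard when each library was left out in turn, with estimates from -1.75 to -1.18. In a Ballgown-style linear model, with a library covariate and no moderated variances, the estimate was -1.40 and did not pass.

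PYY had a log2 fold change of 1.33 (SE 0.59, 95% interval -0.06 to 2.72), with an adjusted p = 0.297 by limma. Its groups did not overlap, as was the case for 25.3% of gene names. Without W_Con replicate 3 the estimate fell to 0.57, whereas without W_Con replicate 1 (1.78) or W_Con replicate 2 (1.63) PYY passed the standard. It also passed with median-of-ratios scaling (1.34), in the Ballgown-style linear model (1.64) and with all 12 libraries in 1 fit (1.33). SLC6A4 had an estimate of -1.12 (SE 0.63, interval -2.59 to 0.35) and -0.60 without the same library or -0.65 without PW_Con replicate 3, whereas it passed without W_Con replicate 1 (-1.66) or PW_Con replicate 2 (-1.59). The study itself had reported PYY as increased and SLC6A4 as down-regulated after weaning in these control libraries, at the same standard. Neither direction here is therefore independent evidence. The study named Ballgown and not limma, so a gene short of the standard by limma can have passed it there. For GCG the estimate of 1.17 (interval -1.97 to 4.31) became -0.61 without W_Con replicate 3, and for NTS 0.38 (interval -1.99 to 2.75) became -0.94. Both turned direction on the library in which FABP6 was 9.10 FPKM, compared with 8055 and 1231 FPKM in the other W_Con libraries.

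Between weaned and sucking piglets of resveratrol-fed sows, GIP again had a lower mean level, 65.5 ± 24.6 against 150 ± 100 FPKM (SD, n = 3), yet its groups overlapped and its log2 fold change of -0.998 (SE 0.57, interval -2.33 to 0.33) did not pass. It was -1.61 and passed without W_Res replicate 1, -0.49 without W_Res replicate 2, -0.65 without PW_Res replicate 1 and -0.18 in the Ballgown-style linear model. Of the 8 genes tested, 7 had estimates below 0, as did 65.9% of all gene names. Without the 4 libraries with low FABP6, where PW_Res replicate 1 alone stands against 2 W_Res libraries and is assumed to vary like them, PYY (0.47), NTS (0.084) and SST (0.14) were above 0, and in the Ballgown-style linear model PYY, SST, GHRL and SLC6A4 were. None passed the standard, against 4.75% of 13013 gene names. Their estimates ran from -1.64 for NTS to 0.46 for CCK, with a median of -0.46 beside -0.16 for all gene names. NTS was -2.78 and passed without PW_Res replicate 1, and was -0.60 without W_Res replicate 3 and -0.79 without PW_Res replicate 3. CCK was 1.53 and passed without W_Res replicate 2. Adjusted p-values by limma lay between 0.462 and 0.915. PYY gave -0.13 here (interval -1.13 to 0.87), or 0.087 with median-of-ratios scaling, CHGA -0.43 (interval -0.99 to 0.14), SST -0.58 (interval -1.33 to 0.17) and SLC6A4 -0.40 (interval -1.11 to 0.31). With 1 library left out CHGA ran from -0.57 to -0.27, SST from -0.89 to -0.39 and SLC6A4 from -0.56 to -0.15.

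Over both litter sets, the mean of the 2 weaning effects was -1.19 for GIP (SE 0.36, adjusted p = 0.145 by limma), past the standard together with 0.683% of gene names that were lower. A two-sided exact permutation of age within each diet gave P = 0.025 for GIP, where 0.005 was the smallest value that 400 arrangements allow and 10 genes were computed. Without the 4 libraries with low FABP6 the estimate was -1.29. Without W_Res replicate 2, which had the highest GIP level at 253 FPKM, it was -0.93 and no longer beyond -1, and in the Ballgown-style linear model it was -0.97. None of the 8 tested genes among the 9 passed, against 1.42% of 12886 gene names. Their estimates were 0.60 for PYY, 0.34 for GCG, 0.14 for CHGA, 0.13 for CCK, -0.34 for SST, -0.63 for NTS, -0.76 for SLC6A4 and -0.77 for GHRL. The SLC6A4 estimate had an interval of -1.60 to 0.07, and SLC6A4 passed without W_Con replicate 1 (-1.03) and was -0.50 without W_Con replicate 3. PYY was 0.22 without W_Con replicate 3, NTS ran from -1.29 to -0.11 with 1 library left out, and GHRL was -0.22 without W_Res replicate 2. SST ran from -0.56 to -0.21 in the same way. GCG turned to -0.55 and CHGA to -0.080 without W_Con replicate 3, and CCK to -0.24 without W_Res replicate 3. In the Ballgown-style linear model SST (0.36) and NTS (0.68) turned.

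**Figure D3:**
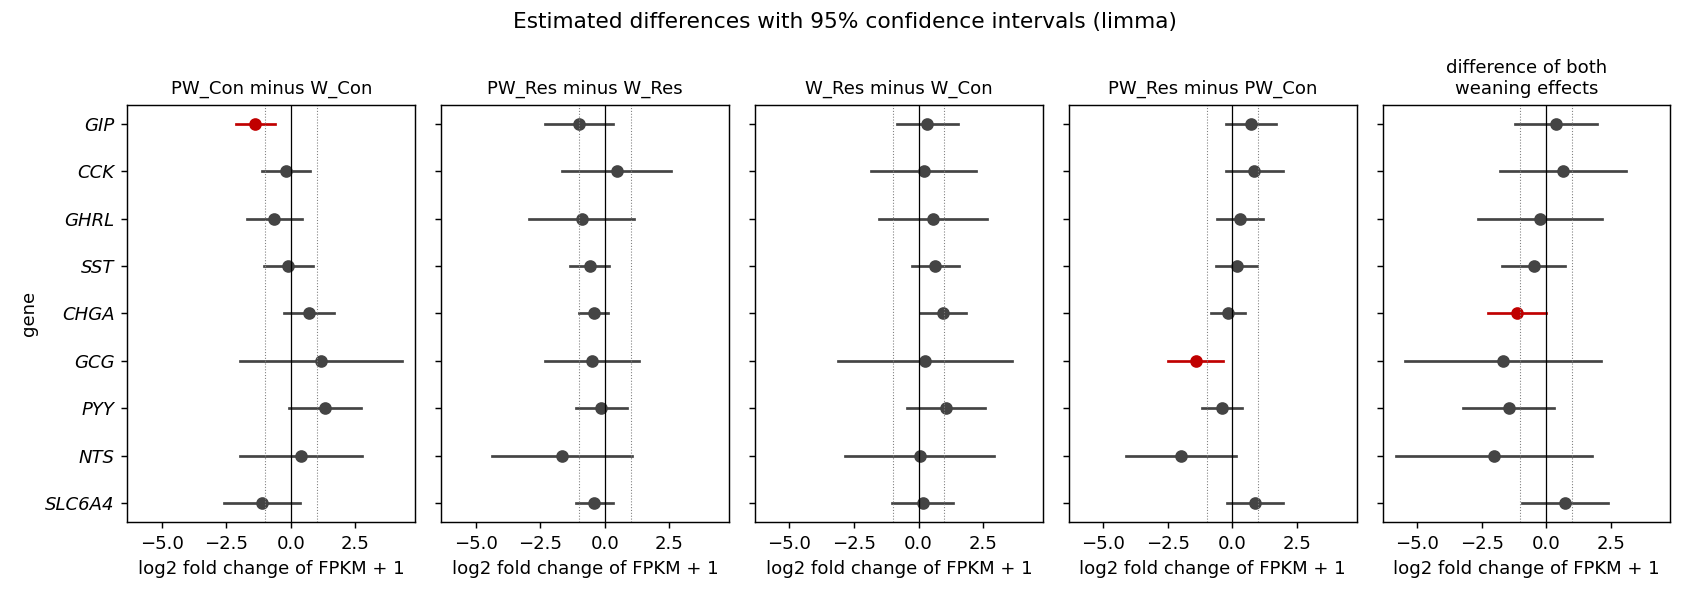
Log2 fold changes of FPKM + 1 with 95% confidence intervals for 9 genes in 4 comparisons of 3 against 3 libraries and in the difference of both weaning effects, where red marks the study's standard and dotted lines mark 1 and -1. GIP in PW_Con minus W_Con (-1.38), GCG in PW_Res minus PW_Con (-1.42) and CHGA in the difference (-1.13) are the red points, and the widest interval of each comparison is that of GCG or NTS.

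Maternal resveratrol was compared at each age. In sucking piglets, all 8 tested genes had higher estimates in W_Res than in W_Con, as did 57.9% of all gene names. Their median was 0.40 beside 0.087 for all gene names. NTS turned to -0.042 with median-of-ratios scaling and -0.090 with quantile normalization. In the Ballgown-style linear model GCG (-0.77), CCK (-0.79), NTS (-0.72), SST (-0.030) and GHRL (-0.42) turned, as did GIP (-0.31). Leaving out 1 library turned GCG (-1.54), CCK (-0.87), NTS (-1.28), GHRL (-0.54) and SLC6A4 (-0.38). CHGA had a log2 fold change of 0.96 (SE 0.38, adjusted p = 0.363 by limma), from 54.8 ± 25.2 to 99.3 ± 14.7 FPKM (SD, n = 3), and its groups did not overlap, as for 21.0% of gene names. Without W_Con replicate 3 it was 0.52 and in the Ballgown-style linear model 0.36, whereas it passed the standard without W_Con replicate 1 (1.10), W_Con replicate 2 (1.25) or W_Res replicate 1 (1.09). None of the 8 passed the standard, against 4.47% of 13186 gene names. The other estimates lay between 0.04 for NTS and 1.06 for PYY, and GIP gave 0.34 (interval -0.85 to 1.53). PYY was 0.30 without W_Con replicate 3, 0.70 without W_Res replicate 3 and 0.24 in the Ballgown-style linear model. Without the 4 libraries with low FABP6, the estimates of GCG, CCK, GIP, NTS and GHRL were below 0.

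In weaned piglets GCG was lower in PW_Res than in PW_Con, 56.9 ± 42.5 against 131 ± 19.8 FPKM (SD, n = 3). Its log2 fold change was -1.42 (SE 0.45, adjusted p = 0.404 by limma) and its groups did not overlap, as for 17.3% of gene names. It was the only 1 of 8 tested genes past the standard, against 1.81% of 12380 gene names. PW_Res replicates 2 and 3, with 31.0 and 33.8 FPKM of GCG, were 2 of the 4 libraries with low FABP6, at 1.70 and 4.81 FPKM, whereas PW_Res replicate 1 had 106 FPKM of GCG and 24110 FPKM of FABP6. Without those libraries 1 PW_Res library remained, assumed to vary like the PW_Con libraries, and the GCG estimate was -0.30 and did not pass. The call was also lost without PW_Res replicate 2 alone (-1.11) or replicate 3 alone (-1.17), in the Ballgown-style linear model (-0.11) and with all 12 libraries in 1 fit (-1.42). NTS had a larger estimate of -1.98 (SE 0.91, interval -4.12 to 0.16) with overlapping groups. It became 0.31 without the 4 libraries with low FABP6 and 0.44 in the Ballgown-style linear model. Without PW_Res replicate 1 alone NTS was -3.12 and passed, and without PW_Res replicate 3 alone it was -1.13. SLC6A4 gave 0.88 (interval -0.20 to 1.96), CCK 0.85 (interval -0.26 to 1.97) and GIP 0.72 (interval -0.24 to 1.69), none past the standard. Leaving out 1 library made each pass, SLC6A4 without PW_Con replicate 2 (1.35), CCK without PW_Res replicate 1 (1.34), and GIP without either of these (1.10 and 1.07). SLC6A4 was 0.41 without PW_Con replicate 3 and CCK 0.39 without PW_Res replicate 3. GIP was 0.025 and CCK -0.12 without the 4 libraries with low FABP6, and in the Ballgown-style linear model GIP was -0.20 and CCK -0.27.

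The last test asked whether the weaning effect differed between litters of resveratrol-fed and control sows. For CHGA it did by the study's standard, with a mean level that went from 54.8 to 85.3 FPKM in control litters and from 99.3 to 74.1 FPKM in resveratrol litters. The difference was -1.13 on the log2 scale (SE 0.51, adjusted p = 0.356 by limma). CHGA was the only 1 of 8 tested genes past the standard, against 7.76% of 12886 gene names. Without W_Con replicate 3 the difference was -0.69, and leaving out a single library took CHGA out of the standard in 7 of 12 cases. It was also lost with median-of-ratios scaling (-0.93), in the Ballgown-style linear model (-0.57), without a filter on low values (-1.13) and with the replicate block. Without the 4 libraries with low FABP6 the difference for CHGA was -0.93. NTS had the largest estimate, -2.02 (interval -5.83 to 1.79), which ran from -3.16 without PW_Res replicate 1 to -0.70 without W_Con replicate 3 and was 1.03 without the 4 libraries with low FABP6. CCK gave 0.66 (interval -1.80 to 3.11) and passed without W_Res replicate 2 (1.73). PYY gave -1.46 (interval -3.23 to 0.31), GCG -1.67 (interval -5.47 to 2.14) and GIP 0.38 (interval -1.21 to 1.97), so that a difference of either sign remained within the interval. PYY was -0.70 without W_Con replicate 3, -1.91 and past the standard without W_Con replicate 1, -0.096 without the 4 libraries with low FABP6 and -0.010 in the Ballgown-style linear model. GCG turned to 0.12 without W_Con replicate 3 and to 0.40 without the 4 libraries. The 2 comparisons of weaning and the 2 of diet share libraries with this difference. No gene of the 9, nor GIP, reached an adjusted p under 0.05 by limma in any of the 6 comparisons. In the order given here, the share of all gene names that reached it was 0%, 0.00768%, 0.0776%, 0%, 0.00808% and 0%. Unadjusted P was under 0.05 for CHGA in 2 comparisons, GIP in 2 and GCG in 1, and in the same order for 17.7%, 13.3%, 19.0%, 13.3%, 10.2% and 13.7% of gene names.

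Hormone levels were also set against CHGA in the same library, as a description. GIP was 143%, 149% and 354% of CHGA in W_Con and 51.5%, 65.1% and 27.3% in PW_Con, and 64.4%, 232% and 135% in W_Res and 64.3%, 114% and 83.0% in PW_Res. The control groups were fully apart, as for 16.8% of 12610 gene names set against CHGA in the same way, and the resveratrol groups overlapped between 64.4% and 114%. SST was 90.2%, 73.9% and 80.8% of CHGA in W_Con and 47.2%, 53.1% and 39.4% in PW_Con. In W_Res it was 60.0%, 69.1% and 68.6%, and in PW_Res 112%, 43.7% and 41.1%. The narrow SST share of W_Con included replicate 3, whose FPKM of SST and CHGA were both the lowest of 12. GCG ran from 14.6% to 340% of CHGA in W_Con and from 113% to 243% in PW_Con, and PYY from 14.7% to 41.7% and from 35.3% to 53.3%.

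**Figure D4:**
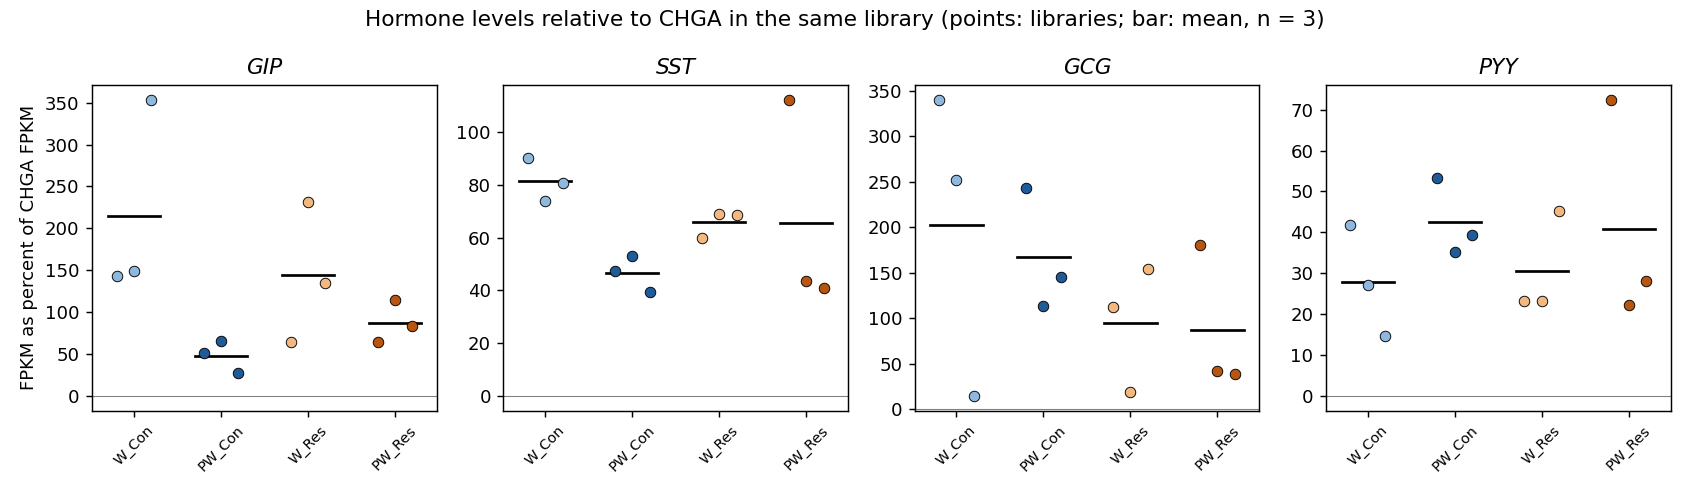
FPKM of GIP, SST, GCG and PYY as a percent of CHGA FPKM in the same library (linear axes), with a point for each library and a bar for the mean of 3 in each group. GIP and SST have lower shares in all 3 PW_Con than in all 3 W_Con libraries, and PW_Res replicate 1 has the highest SST share, 112%.

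General enteroendocrine genes, a list of granule proteins and transcription factors of which 17 of 23 were found, were low in abundance. In this and the following lists no gene reached an adjusted p under 0.05 by limma in any comparison, and those named as higher or lower passed the study's standard, with adjusted p-values from 0.117 to 0.484. Their summed level was 16.6 to 38.2 FPKM in W_Con, 31.7 to 37.2 FPKM in PW_Con, 35.3 to 46.3 FPKM in W_Res and 20.5 to 34.5 FPKM in PW_Res. In control litters 10 of 11 tested genes had higher estimates after weaning, as did 48.2% of all gene names, and none passed the standard, against 3.31%. INSM1 reached the mean of 0.5 FPKM required for a test there only through PW_Con, so its direction follows from the filter. In resveratrol litters 11 of 12 had lower estimates, beside 65.9% of all gene names. With median-of-ratios scaling or quantile normalization it was 10 of 12, where the median of all gene names was 0.014 and 0.017. In these litters 1 passed, against 4.75%, the transcription factor ISL1 (-1.14), which was lost with quantile normalization. There ISL1 and RIMBP2 reached the mean of 0.5 FPKM only through W_Res, so their lower estimates follow from the filter. In the difference of both effects all 13 tested genes had estimates below 0, as did 60.9% of all gene names, with a median of -0.63 beside -0.15. Of the 13, PAX6 and RIMBP2 reached the mean of 0.5 FPKM only through W_Res. Elsewhere they were at or below 0.82 and 0.65 FPKM. A high W_Res level lowers this difference, so their sign follows from the filter. All 13 were also below 0 with median-of-ratios scaling and quantile normalization, where the median of all gene names was 0.0035 and 0.015. Without scaling 4 of the 13 passed, against 5.95% of gene names that were lower: SCG5 (-1.23) and PCSK1N (-1.54), chaperone and inhibitor of prohormone convertases, SYT13 (-1.02), a synaptotagmin, and ISL1 (-1.50). With median-of-ratios scaling 3 passed, without SYT13, and with quantile normalization 2, PCSK1N and ISL1. At 21 days PCSK1N was higher in W_Res than in W_Con (1.03), a call lost with either scaling. None of the calls in this list was kept without the 4 libraries with low FABP6, a setting with fewer libraries, in which the difference was -0.22 for SCG5, -1.09 for PCSK1N, -0.96 for SYT13 and -0.90 for ISL1.

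Enteric neurons express several of these genes too. The enteric neuron list, 12 of 14 found, had summed levels of 8.75 to 34.1 FPKM in W_Con, 21.0 to 37.4 FPKM in PW_Con, 33.9 to 65.1 FPKM in W_Res and 11.7 to 22.0 FPKM in PW_Res. No gene found of this list was at 0 in every library of a group. In resveratrol litters 3 of 10 tested genes passed, against 4.75% of all gene names, at 21 days 2 of 10, against 4.47%, and in the difference 4 of 11, against 7.76%. In resveratrol litters UCHL1 (-1.45), STMN2 (-1.01, a call lost with either scaling) and PRPH (-1.27) were lower after weaning, at 21 days PRPH (1.35) and GAL (1.26) were higher in W_Res, and in the difference UCHL1 (-1.60), TUBB3 (-1.66), PRPH (-2.15) and GAL (-1.31) passed. Without the 4 libraries with low FABP6, weaning estimates in resveratrol litters were -1.41 for UCHL1, -0.18 for STMN2 and -0.52 for PRPH. At 21 days PRPH (0.55) and GAL (0.75) were then lost. The difference was then -1.16 for UCHL1, -0.83 for TUBB3, -1.04 for PRPH and -0.81 for GAL, and PW_Res kept replicate 1 alone. The part of neurons in the CHGA and general enteroendocrine results was not tested.

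Of 13 other gut hormone genes 10 were found and none passed the standard in any of the 6 comparisons. The most abundant were GUCA2A (mean 458 FPKM) and GUCA2B (mean 141 FPKM), which encode guanylin and uroguanylin and are also made outside enteroendocrine cells. Motilin (MLN) resembled GHRL, at 20.9 FPKM in W_Con replicate 3 and 36.2 FPKM in W_Res replicate 2, at 0.62 and 1.34 FPKM in PW_Res replicates 2 and 3, and at or below 0.36 FPKM in the other 8 libraries. A pancreas list, 7 of 13 found, led by CELA2A (mean 1.37 FPKM) and CPA1 (mean 0.394 FPKM), summed to between 0.82 and 4.65 FPKM.

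Among genes of hormone processing and breakdown, 9 of 10 were found. ENPEP, the brush border aminopeptidase A, was lower after weaning in control litters (-1.66) and lower in W_Res than in W_Con (-1.79), and its weaning effect differed between diets (1.98). PCSK2, a prohormone convertase, was lower after weaning in resveratrol litters (-1.48) with a difference of -1.69. In those litters PCSK2 reached the mean required for a test only through W_Res, so its lower estimate there follows from the filter. ACE, a peptidase, was lower over both litter sets (-1.42), a call lost with median-of-ratios scaling. The incretin-degrading DPP4 passed in no comparison, at 23.7 to 88.4 FPKM. Of 21 hormone receptors 12 were found and at most 3 reached the level for a test. GLP1R was higher in W_Res than in W_Con (1.14) and lower after weaning in resveratrol litters (-1.26). It stood at 2.07 and 2.90 FPKM in W_Res replicates 1 and 2 and at or below 0.33 FPKM in all other libraries. Only W_Res brought GLP1R to the mean required for a test, so both directions follow from the filter.

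Of 19 nutrient and bile acid sensors 14 were found, and most free fatty acid and bile acid receptors were under 1 FPKM on average. TAS1R3, a subunit of sweet and umami receptors, was higher in W_Res than in W_Con (1.20), lower after weaning in resveratrol litters (-1.10, a call lost with either scaling) and passed in the difference (-1.69). The peptide transporter SLC15A1 had the opposite signs, -1.56 at 21 days and 1.08 after weaning in resveratrol litters, the latter lost with quantile normalization.

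Other genes of serotonin handling, 20 of 22 found, were led by the enzymes MAOA, MAOB, ALDH2 and DDC at means of 139, 131, 105 and 86.8 FPKM, all far above TPH1. DDC, which makes serotonin from 5-hydroxytryptophan and is also active in enterocytes, was 102 to 155 FPKM in the 4 libraries with low FABP6 and 49.3 to 88.7 FPKM in the other 8. The receptor HTR4 was lower after weaning in resveratrol litters (-1.38) with a difference between diets of -1.56, and the receptor HTR1D was higher there (1.20) and higher in PW_Res than in PW_Con (1.12). IDO1, which diverts tryptophan to kynurenine, was lower in PW_Res than in PW_Con (-1.01), a call lost with either scaling. TPH2, the neuronal tryptophan hydroxylase, was at or below 0.071 FPKM. The mast cell list, cells that can also hold serotonin, had 6 of 10 genes found, led by FCER1A (mean 6.72 FPKM) and KIT (mean 2.53 FPKM), summed to between 6.31 and 27.2 FPKM, and none passed.

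Gut position and other epithelial cells were followed with 4 further lists. The distal list, 8 of 9 found, summed to 209 to 8839 FPKM in W_Con, 7100 to 10515 FPKM in PW_Con, 215 to 7621 FPKM in W_Res and 344 to 25460 FPKM in PW_Res. The proximal list, 10 of 13 found, summed to 3753 to 15678, 997 to 2943, 2311 to 6415 and 2677 to 9520 FPKM in the same order. FABP6, by which the libraries were set apart, held most of the highest distal sum of each group. FABP1 held most of the proximal sums. In control litters after weaning 4 of 9 tested proximal genes were lower beside GIP, against 1.82% of all gene names: FABP1 (-2.11), FABP2 (-2.20), SLC40A1 (-1.92) and S100G (-3.31). Without the 4 libraries with low FABP6, SLC40A1 was -1.07 and S100G -2.14. Of 8 tested distal genes 1, SLC51A (1.26), was higher in control litters, against 1.5%. In the difference FABP1 (2.30, lost with quantile normalization) and S100G (3.97) passed. At 28 days 8 of 9 tested proximal genes had higher estimates in PW_Res. Of these CYBRD1 (1.94) and S100G (3.00) passed, against 0.856% of all gene names that were higher. Of 8 tested distal genes 5 had lower estimates and 3 higher. There 1 passed, NR1H4 (-1.63), lower beside GCG, against 0.953% of gene names that were lower. Over both litter sets FABP2 (-1.31) and SLC40A1 (-1.33) were lower. The part of these differences in position markers in the GIP and GCG results was not tested. Of the brush border list (10 of 13 found) APOB, an apolipoprotein, passed in control litters after weaning (-1.23), at 21 days (-1.29) and in the difference (1.48). Of the goblet and other secretory list (8 of 12 found) TFF3, a goblet cell peptide, was higher after weaning in control litters (1.26) and over both litter sets (1.05), LYZ was lower in W_Res (-2.64), and the tuft cell factor POU2F3 was lower after weaning in resveratrol litters (-1.09, lost with either scaling) with a difference of -1.31. Over all lists, 20 of 53 calls were kept without the 4 libraries with low FABP6, and 33 were lost with the direction unchanged. Fewer libraries enter this setting, which leaves PW_Res with replicate 1 alone in every comparison that includes it. That library is assumed to vary like the others, so kept and lost calls cannot be set against each other across comparisons. The share of calls kept over all gene names was not computed, so these counts show nothing particular to the lists. Genes such as S100G and ENPEP are counted in several comparisons, which share libraries. Of the 33 estimates 8 were still beyond 1 or -1, such as HTR1D (1.57 for weaning in resveratrol litters and 1.60 at 28 days), SLC15A1 (1.35 for weaning in resveratrol litters) and PCSK2 (-1.50 there and -1.40 in the difference). Kept were 6 of 8 for weaning in control litters (all but SLC51A and APOB), 2 of 11 in resveratrol litters (HTR4 and UCHL1), 1 of 4 over both (FABP2), 3 of 9 at 21 days (ENPEP, TAS1R3 and LYZ), 2 of 5 at 28 days (CYBRD1 and S100G) and 6 of 16 in the difference (ENPEP, TAS1R3, S100G, APOB, UCHL1 and PRPH).

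The genes whose log2(FPKM + 1) was most like each hormone over the 12 libraries were sought among 7742 or 7743 gene symbols, with Pearson's r as the measure of likeness and no test. NTS was most like MEP1A, the brush border meprin A subunit (r = 0.94, and 0.97 for deviations from the group means), CA13 and CLCN1, and GCG was most like PLOD2 (r = 0.94), NEDD4L and CA4. MEP1A was 8.85 to 15.9 FPKM in the 4 libraries with low FABP6 and 48.9 to 656 FPKM in the other 8. GHRL was most like SLC36A1 (r = 0.94), FOLH1B and MLN (r = 0.93), and CCK most like TM4SF5 (r = 0.88), GFRA3 and PRDM16. GIP stood closest to AQP10 (r = 0.91, and 0.83 for deviations from the group means), SOCS2 and CRABP1. PYY was most like GLIPR1 (r = 0.93) and PRR19, SST most like CTDSPL (r = 0.93), MID2 and the prohormone-trimming CPE (r = 0.91), and CHGA most like B4GALT2 (r = 0.89), FAM222B and KAT7. TPH1 was most like IL1R1 (r = 0.92), MAPK14 and ZNF584, on values near 0, and SLC6A4 most like SIDT2 (r = 0.92), RAB10 and ANKH. The points share libraries, and so also the division by FABP6.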

How the data were processed

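Jejunum RNA of 12 piglets was sequenced as poly(A) libraries with paired ends. The authors assembled transcripts and computed FPKM per locus, and the deposited table holds these FPKM values. Their methods name TopHat, StringTie and Ballgown, and their processing notes list HISAT2 2.0, StringTie 1.3.0, Bowtie 0.12.2 and Sscrofa10.2 without roles. FPKM do not keep depth, so precision is limited by 3 libraries per group. Loci sharing a gene name were summed, and 17650 of 41264 loci (42.8%) had no name and were left out, with 5.48% to 8.47% of FPKM. Ensembl identifiers were paired with symbols through a separate table. limma 3.58.1 in R 4.3.3 was fitted to log2(FPKM + 1) of gene names with a mean of at least 0.5 FPKM, with a variance trend and Benjamini-Hochberg adjustment over all gene names tested. On simulated data with the spread of the control comparison it called 193 of 200 genes changed by 2 on the log2 scale. The changed genes were drawn at random from the more abundant ones, each with its own spread. This share therefore does not apply to genes as variable as GCG, NTS, CCK and GHRL. The 10 genes and 13 lists were chosen with earlier results of these data known. All 10 genes are named. From each list the genes past the study's standard in any comparison are named, otherwise the 2 most abundant, and for each of the 10 genes the 3 symbols with the highest r, of which 1 is not reported here. Further genes (MLN, DPP4, MAOA, MAOB, ALDH2, DDC, TPH2 and the position markers) were named after their values were seen. Alternatives covered pseudocount, filter, scaling, variance model, replicate block, locus choice and libraries left out.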

Additional observations from a re-analysis of the deposited data

Results flagged for a closer look

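The weaning effect differed between maternal diets by limma's unadjusted test for CHGA, with a difference of -1.13 on the log2 scale (adjusted p = 0.356 by limma), and for 16 of 101 tested genes of the lists, against 7.76% of 12886 gene names past the same standard. Those below 0 were SCG5 (-1.23), PCSK1N (-1.54), SYT13 (-1.02), ISL1 (-1.50), PCSK2 (-1.69), TAS1R3 (-1.69), HTR4 (-1.56), UCHL1 (-1.60), TUBB3 (-1.66), PRPH (-2.15), GAL (-1.31) and POU2F3 (-1.31). Those above 0 were ENPEP (1.98), FABP1 (2.30), S100G (3.97) and APOB (1.48). A value below 0 means a lower level after weaning, relative to before, in litters of resveratrol-fed sows than in control litters. None of these differences had an adjusted p under 0.05. The CHGA call was lost in 7 of 12 cases with 1 library left out, with median-of-ratios scaling, without a filter on low values, with the replicate block and in the Ballgown-style linear model. SYT13 was lost with median-of-ratios scaling and with quantile normalization, and SCG5 and FABP1 with the latter. Without the 4 libraries with FABP6 under 20 FPKM the CHGA call (-0.93) and 10 of the 16 others were lost, on fewer libraries and with 1 PW_Res library, and 3 of the 10 were still beyond 1 or -1, PCSK1N (-1.09), PCSK2 (-1.40) and FABP1 (1.09).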

How the results depend on the processing

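With 3 libraries per group, FPKM without depth and intervals several log2 units wide for GCG and NTS, smaller differences in these genes could not be resolved. Of 998 alternative estimates for single genes, 874 kept their direction and side of the standard, 20 lost it, 21 gained it and 83 turned direction, and the cause was not tested. Without the 4 libraries with FABP6 under 20 FPKM, estimates turned for weaning in control litters in GCG (-0.61), CCK (0.17) and NTS (-0.94), for weaning in resveratrol litters in PYY (0.47), NTS (0.084) and SST (0.14), for weaning over both litter sets in GCG (-0.41) and CHGA (-0.20), for diet at 21 days in GCG (-0.70), CCK (-0.51), GIP (-0.19), NTS (-0.72) and GHRL (-0.050), for diet at 28 days in PYY (0.29), CCK (-0.12) and NTS (0.31), and for the difference of weaning effects in GCG (0.40), NTS (1.03) and SST (0.68). Past the standard were then 0 of the 9 genes for diet at 28 days and 0 for the difference, and 314 gene names for weaning in resveratrol litters, 348 for diet at 21 days and 487 for diet at 28 days, against 618, 590 and 224 with all libraries.

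The Ballgown-style linear model turned SST (0.067) for weaning in control litters, PYY (0.23), SST (0.36), GHRL (1.87) and SLC6A4 (0.53) for weaning in resveratrol litters, NTS (0.68) and SST (0.36) over both litter sets, GCG (-0.77), CCK (-0.79), GIP (-0.31), NTS (-0.72), SST (-0.030) and GHRL (-0.42) for diet at 21 days, PYY (0.41), CCK (-0.27), GIP (-0.20), NTS (0.44) and GHRL (-0.64) for diet at 28 days, and GCG (0.29), NTS (0.18), SST (0.69) and GHRL (0.51) for the difference. It passed 1 of the 9 genes for weaning in control litters, PYY, and 0 for diet at 28 days and 0 for the difference, and 257 gene names for weaning in resveratrol litters, 201 for diet at 21 days and 318 for the difference, against 618, 590 and 1000. PYY was also the 1 gene past the standard for weaning in control litters with median-of-ratios scaling and with all 12 libraries in 1 fit. CHGA was lost for the difference, leaving 0 genes, with median-of-ratios scaling, without a filter on low values and with the replicate block, and GCG was lost at 28 days, leaving 0, with all 12 libraries in 1 fit. A pseudocount of 0.1 raised the gene names past the standard to 853, 1163 and 591 for weaning in control litters, resveratrol litters and both, 1008 for diet at 21 days and 488 for diet at 28 days, and turned GHRL for the difference (0.055). PYY turned for weaning in resveratrol litters with median-of-ratios scaling (0.087), and NTS turned for diet at 21 days with it (-0.042), with quantile normalization (-0.090) and with the highest locus in place of the sum (-0.071). Median-of-ratios scaling changed the share of calls that were higher from 20.9% to 44.6% for weaning in resveratrol litters, from 51.9% to 69.4% over both litter sets, from 66.8% to 55.6% for diet at 21 days, from 47.3% to 61.1% for diet at 28 days and from 23.3% to 42.9% for the difference, and moved the medians of all gene names there from -0.16, -0.10, 0.087, -0.068 and -0.15 to 0.01, -0.01, -0.00075, 0.01 and 0.0035. Libraries were not paired in the main tests. Of 18 same-number pairs, 5 had correlated deviations over 0.1 (range -0.26 to 0.30). Pairs with different numbers were not computed, so these values cannot decide whether replicate numbers pair the samples. The study took control piglets of both ages from the same litters, and which libraries share a litter is not known. With the replicate block 444 gene names passed for weaning in control litters against 418 without it.

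Leaving out each library in turn, the genes past the standard among the 9 ranged from 0 to 2 for weaning in control litters, 0 to 1 in resveratrol litters and over both, 0 to 1 for diet at 21 days, 0 to 3 for diet at 28 days and 0 to 2 for the difference. All gene names past the standard ranged from 388 to 1049 for weaning in resveratrol litters, from 394 to 944 and from 222 to 426 for diet at 21 and 28 days, and from 633 to 1367 for the difference. Estimates spanned 0 for weaning in control litters in GCG (-0.61 to 2.10), CCK (-0.57 to 0.17), NTS (-0.94 to 1.07) and SST (-0.54 to 0.16), in resveratrol litters in PYY (-0.48 to 0.23), GCG (-1.33 to 0.13), CCK (-0.28 to 1.53) and GHRL (-1.51 to 0.20), over both in GCG (-0.55 to 0.80), CCK (-0.24 to 0.67) and CHGA (-0.080 to 0.29), for diet at 21 days in GCG (-1.54 to 1.17), CCK (-0.87 to 0.93), GIP (-0.17 to 0.95), NTS (-1.28 to 0.73), GHRL (-0.54 to 1.18) and SLC6A4 (-0.38 to 0.68), for diet at 28 days in SST (-0.14 to 0.38), and for the difference in GCG (-2.59 to 0.12), CCK (-0.081 to 1.73), GIP (-0.23 to 0.89) and GHRL (-0.87 to 0.84).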
